A study of Mus musculus with 8 samples.

Results

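The 10 genes described here are regulators of cytokine signalling: the interferon regulatory factors Irf1, Irf4, Irf5 and Irf8, the signal transducers Stat3, Stat4 and Stat6, and the feedback inhibitors Socs1, Socs3 and Cish. They were taken by symbol from the 24786 symbols of the deposited count files, and the list was chosen with earlier results of these data known. All 10 were present, and all 10 were among the 15254 genes kept by a filter on low counts. Polyadenylated RNA of C57BL/6 mouse liver macrophages was sequenced in 8 libraries, 2 in each of 4 groups. The groups were monocyte-derived macrophages (MoM) from mice with the dnTGFβRII transgene (TG), MoM from wild-type mice (WT), liver-resident Kupffer cells from TG mice, and liver-resident Kupffer cells from WT mice. The dnTGFβRII transgene encodes a dominant-negative form of TGF-β receptor II. In the mouse line known by this name, a Cd4 promoter drives it in T cells, so that a difference between TG and WT macrophages is one between cells of mice whose T cells carry the transgene, and the line serves as a model of autoimmune cholangitis. The labels give no age, sex or sorting markers, and do not say whether the 2 replicates of a group came from separate mice. P-values then measure only the spread between these libraries, which may be technical.

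Cytokines and interferons bind receptors that activate Janus kinases. These phosphorylate STAT proteins, which enter the nucleus and induce target genes, among them transcription factors of the IRF family and SOCS proteins. SOCS proteins in turn inhibit receptors and kinases and so end the signal. In macrophages and dendritic cells, IRF1 serves the response to interferon gamma, STAT6 the response to interleukin 4 and interleukin 13, STAT3 the response to interleukin 6 and interleukin 10, and STAT4 the response to interleukin 12, while IRF4 and IRF8 take part in the formation of different subsets of macrophages and dendritic cells.

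The markers of other cell types bear on every value below. Libraries held 26190194 to 30308132 counts, so that 1 count corresponded to 0.0330 to 0.0382 CPM (counts scaled to the size of the library), and levels are given as TMM-scaled CPM. The summed level of 6 Kupffer cell markers was 449 and 235 CPM in the MoM TG libraries, and 7878 and 124 CPM in the MoM WT libraries. It was 25661 and 12764 CPM in the Kupffer TG libraries and 25501 and 25558 CPM in the Kupffer WT libraries. MoM WT replicate 1 thus carried far more RNA of Kupffer cell markers than the other 3 MoM libraries. Kupffer TG replicate 2 had the highest sums of the endothelial markers (6 genes, 5956 CPM) and the hepatocyte markers (4 genes, 722 CPM) among the 8 libraries. MoM TG replicate 2 had a neutrophil marker sum of 3443 CPM, against at most 74.7 CPM in the other 7 libraries. Ccr2, the receptor that brings monocytes into tissue, stood at 216 and 460 CPM in MoM TG and 127 and 186 CPM in MoM WT, against 10.1 and 13.1 CPM in Kupffer TG and 6.46 and 3.88 CPM in Kupffer WT. The sum of 7 markers of conventional dendritic cells was 1409 to 2373 CPM in the 4 MoM libraries, against 61.0 to 271 CPM in the 4 Kupffer libraries. The label of MoM therefore covers libraries rich in RNA of dendritic cell genes. For several results, values without both MoM WT replicate 1 and Kupffer TG replicate 2 (the 2 libraries in doubt) are also given. MoM TG replicate 2, with its high neutrophil marker sum, was kept in those values. They are therefore not values free of RNA of other cell types.

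The sequences upstream of 4 members are shown first. Each of these 4 windows holds a match to the letters marked below, so they do not stand for all 10 members. Irf1 and Socs1 are also the members whose levels separated TG from WT. Each line gives the 250 bases before a RefSeq transcription start (GRCm38.p6), read 5′ to 3′ on the strand of the gene. Irf1 is chr11:53769764-53770013 on the plus strand, Irf8 is chr8:120736108-120736357 on the plus strand, Socs1 is chr16:10785537-10785786 on the minus strand and Socs3 is chr11:117969367-117969616 on the minus strand. Capitals mark matches to the STAT-type letters TTCNNNGAA or to the IRF-type letters GAAANNGAAA.
Irf1: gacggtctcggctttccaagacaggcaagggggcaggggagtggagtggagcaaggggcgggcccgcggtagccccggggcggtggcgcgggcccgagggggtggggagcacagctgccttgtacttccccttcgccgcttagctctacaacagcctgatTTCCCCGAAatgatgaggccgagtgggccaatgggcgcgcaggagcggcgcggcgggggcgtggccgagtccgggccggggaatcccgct
Irf8: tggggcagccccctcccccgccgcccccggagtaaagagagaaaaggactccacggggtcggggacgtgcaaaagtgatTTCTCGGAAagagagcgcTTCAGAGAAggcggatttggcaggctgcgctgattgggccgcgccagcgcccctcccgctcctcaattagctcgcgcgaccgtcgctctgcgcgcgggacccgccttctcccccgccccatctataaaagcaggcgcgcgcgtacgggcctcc
Socs1: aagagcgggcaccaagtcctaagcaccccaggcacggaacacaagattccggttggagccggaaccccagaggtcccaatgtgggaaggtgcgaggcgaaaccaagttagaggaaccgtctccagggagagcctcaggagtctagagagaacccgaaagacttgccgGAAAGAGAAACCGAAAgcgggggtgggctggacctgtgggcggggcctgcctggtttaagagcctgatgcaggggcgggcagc
Socs3: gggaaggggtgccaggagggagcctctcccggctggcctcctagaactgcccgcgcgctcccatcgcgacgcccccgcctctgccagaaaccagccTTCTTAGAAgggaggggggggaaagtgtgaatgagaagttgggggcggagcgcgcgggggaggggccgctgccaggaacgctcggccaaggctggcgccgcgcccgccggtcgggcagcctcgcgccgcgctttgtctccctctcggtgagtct
In these windows, Irf1 held 1 match to TTCNNNGAA (TTCCCCGAA, 90 to 82 bases before the start) and Socs3 held 1 (TTCTTAGAA, 154 to 146 bases). Irf8 held 2 matches (TTCTCGGAA, 171 to 163 bases, and TTCAGAGAA, 153 to 145 bases). Socs1 held 2 overlapping matches to GAAANNGAAA (GAAAGAGAAA, 83 to 74 bases, and GAAACCGAAA, 77 to 68 bases). The windows of all 10 members were searched on both strands for these letters and for TTCNNNNGAA and GGAANNGAAA, in 13 entries. The only further match was GAAAGTGAAA, 97 to 88 bases before the second of the 2 starts listed for Stat4. No match to the 4 motifs was found in the windows of Irf4, Irf5, Stat3, Stat6 and Cish. The windows of Socs3 and Cish lie inside the gene spans given below, because the RefSeq start used differs from the start of those spans. The bases before the spans of Socs3 and Cish were not searched. Of 32851 promoter windows of the same length, 7.02% held TTCNNNGAA, 5.85% held TTCNNNNGAA, 2.98% held GAAANNGAAA and 2.3% held GGAANNGAAA. A match describes the letters only.

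**Figure D1:**
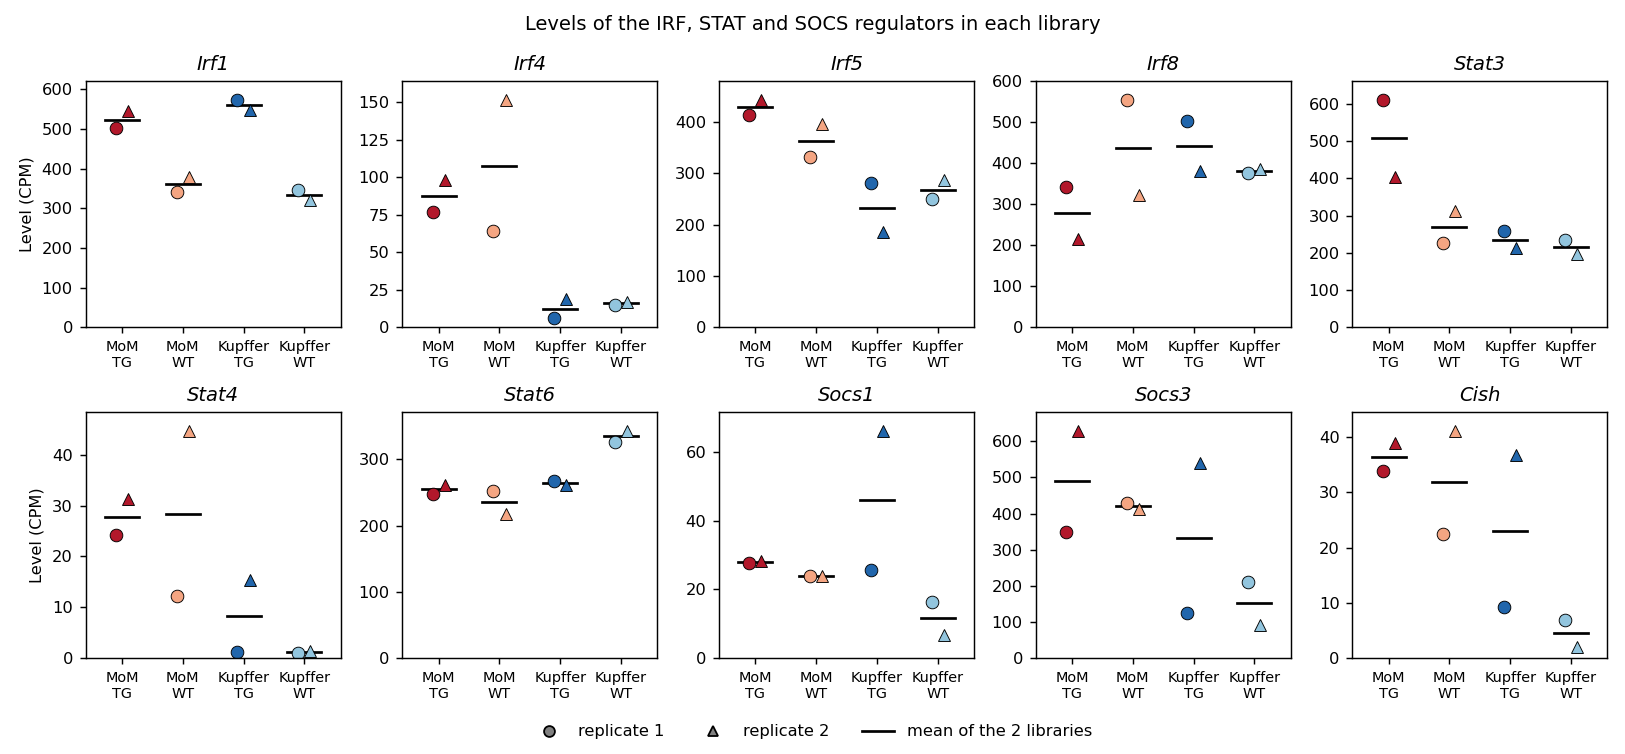
Level of each of the 10 regulators in CPM (vertical axis, from 0, a separate scale for each gene) in each library of the 4 groups (horizontal axis). Points are libraries, circles for replicate 1 and triangles for replicate 2, and bars are the means of 2 libraries. All 4 MoM libraries lie above all 4 Kupffer libraries for Irf4 and Irf5, and all 4 TG libraries above all 4 WT libraries for Irf1 and Socs1.

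MoM carried more Irf4 and more Stat4 RNA than Kupffer cells when the 2 genotypes were averaged, and these were the only members called in any of the 7 comparisons by edgeR's quasi-likelihood test (adjusted p below 0.05, Benjamini-Hochberg over all 15254 genes). Irf4 was 6.88-fold and Stat4 9.24-fold higher in MoM. Irf5, Stat3 and Cish had unadjusted p-values below 0.05 in the same direction but missed the adjusted threshold, and 35.6% of all genes had such a p-value. DESeq2 called all 3 in this comparison (adjusted p = 0.0317 for Irf5, 0.0436 for Stat3 and 0.0121 for Cish), besides Irf4 and Stat4. It called far more genes than edgeR, 4492 of the whole table in this comparison. With edgeR, 18.7% of all genes passed the test in that averaged comparison (10.6% with higher and 8.05% with lower levels in MoM). The 2 of 10 members called by edgeR are thus close to the background. The median log2 fold change of the members was 0.69, against 0.09 over all genes. Within each genotype edgeR called no member. Within TG, edgeR called 2.50% of all genes (1.84% with higher and 0.656% with lower levels in MoM). There, 3 members and 25.4% of all genes had an unadjusted p below 0.05. DESeq2 called 2563 genes within TG, among them 2 members (Irf4 and Stat3). Within WT, edgeR called 1.17% of all genes (1.11% with higher and 0.0590% with lower levels in MoM). There, 4 members and 25.4% of all genes had an unadjusted p below 0.05. DESeq2 called 2867 genes within WT, among them 4 members (Irf4, Stat4, Stat6 and Cish). Both MoM libraries lay above both Kupffer libraries for 4 members within TG (29.1% of all genes) and 6 within WT (38.5%), and below them for 2 within TG (Irf1 and Irf8; 23.8%) and 1 within WT (Stat6; 29.7%).

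Irf4, which encodes a factor needed for dendritic cells of the cDC2 type and for macrophage responses to interleukin 4, lies on chromosome 13 (30749226 to 30766976, plus strand; GRCm38). It stood at 76.8 and 98.1 CPM in MoM TG, 63.9 and 151 CPM in MoM WT, 6.20 and 18.6 CPM in Kupffer TG, and 15.1 and 17.0 CPM in Kupffer WT. The lowest MoM library lay far above the highest Kupffer library, whereas TG and WT overlapped within each subset. The log2 fold change of MoM over Kupffer cells was 2.78 ± 0.44 (SE, 95% interval 1.72 to 3.85, adjusted p = 0.0153). It was 2.82 ± 0.62 within TG (adjusted p = 0.0681) and 2.75 ± 0.62 within WT (adjusted p = 0.0864), neither of which passed. Without MoM WT replicate 1 and Kupffer TG replicate 2, the values were 3.71 within TG and 3.20 within WT. In that fit the lone libraries left in those groups are assumed to vary like the others. The averaged call was lost when either Kupffer WT library or either MoM TG library was left out (adjusted p = 0.0506 to 0.0793).

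The summed conventional dendritic cell markers moved with Irf4. Their summed levels were 1885 and 1801 CPM in MoM TG, 1409 and 2373 CPM in MoM WT, 91.6 and 271 CPM in Kupffer TG, and 75.8 and 61.0 CPM in Kupffer WT, with all 7 of 7 markers detected in every group. Itgax, Ccr7, Cd209a and Flt3 made up most of the MoM sums. Clec9a and Xcr1, markers of the cDC1 type, did not follow Irf4 within TG, where Clec9a stood at 39.4 and 41.5 CPM in MoM, against 38.6 and 63.9 CPM in Kupffer cells. B cells and plasma cells also express Irf4. The B cell marker sum (5 genes) was 93.0 to 218 CPM in MoM and 20.1 to 37.9 CPM in Kupffer cells, and the plasma cell marker sum (4 genes) was 201 to 363 CPM in MoM and 166 to 250 CPM in Kupffer cells. Xbp1 made up most of the plasma cell sum in the Kupffer libraries, and Xbp1 and Sdc1 overlapped between the subsets. Jchain stood at 107 and 146 CPM in MoM TG and 31.2 and 129 CPM in MoM WT. In Kupffer cells Jchain stood at 5.93 and 46.0 CPM in TG and 1.72 and 0.747 CPM in WT. Mzb1 was higher in each MoM library than in each Kupffer library. The part of these cells in the Irf4 result was not tested. In bulk samples such as these, more cells of a type and more RNA per cell cannot be told apart.

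Irf8, which encodes the factor for dendritic cells of the cDC1 type and for monocyte development, showed another pattern (chromosome 8, 120736358 to 120756694, plus strand). It stood at 341 and 216 CPM in MoM TG, 554 and 322 CPM in MoM WT, 503 and 381 CPM in Kupffer TG, and 377 and 386 CPM in Kupffer WT. MoM TG was the lowest group, and both of its libraries lay below both Kupffer TG libraries. The cDC1 markers stood lower in the MoM TG than in the MoM WT libraries. Xcr1 stood at 4.59 and 13.0 CPM in MoM TG and 65.0 and 51.5 CPM in MoM WT, against 5.93 and 28.1 CPM in Kupffer TG and 3.12 and 1.61 CPM in Kupffer WT. Clec9a stood at 39.4 and 41.5 CPM in MoM TG and 120 and 73.4 CPM in MoM WT, against 38.6 and 63.9 CPM in Kupffer TG and 39.4 and 31.6 CPM in Kupffer WT. Neither marker overlapped between TG and WT in MoM, whereas Irf8 did, and the part of these cells in the Irf8 levels was not tested. The log2 fold change of MoM over Kupffer cells was -0.67 ± 0.36 within TG and 0.20 ± 0.36 within WT, and no comparison of Irf8 was called. The highest library of all was MoM WT replicate 1, and without the 2 libraries in doubt the WT value turned to -0.28. The number of Irf4 counts per Irf8 count was 0.225 and 0.455 in MoM TG and 0.115 and 0.470 in MoM WT, against 0.0123 and 0.0487 in Kupffer TG and 0.0400 and 0.0441 in Kupffer WT. The ratio was thus higher in each MoM library than in each Kupffer library, and within MoM it was lowest in replicate 1 of WT.

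Irf5, a factor downstream of Toll-like receptors that promotes inflammatory cytokines, stood at 415 and 443 CPM in MoM TG, 332 and 395 CPM in MoM WT, 281 and 185 CPM in Kupffer TG, and 249 and 286 CPM in Kupffer WT. All 4 MoM libraries lay above all 4 Kupffer libraries, which was true of Irf4 and Irf5 among the members and of 14.8% of all genes. The log2 fold change was 0.66 ± 0.19 (adjusted p = 0.0566), with 0.88 ± 0.27 within TG and 0.44 within WT. Without the 2 libraries in doubt, it was 0.50 within TG and 0.53 within WT. The exons of Irf5 (chromosome 6, 29526625 to 29541871, plus strand) overlap those of Tnpo3 on the other strand, and because the strand setting of the counts is not given in the sources used here, reads in the overlap cannot be told apart.

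Irf1, which encodes a factor induced by interferon gamma (chromosome 11, 53770014 to 53778374, plus strand), did not separate the subsets: the averaged log2 fold change of MoM over Kupffer cells was 0.01. It is described with the genotypes below.

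**Figure D2:**
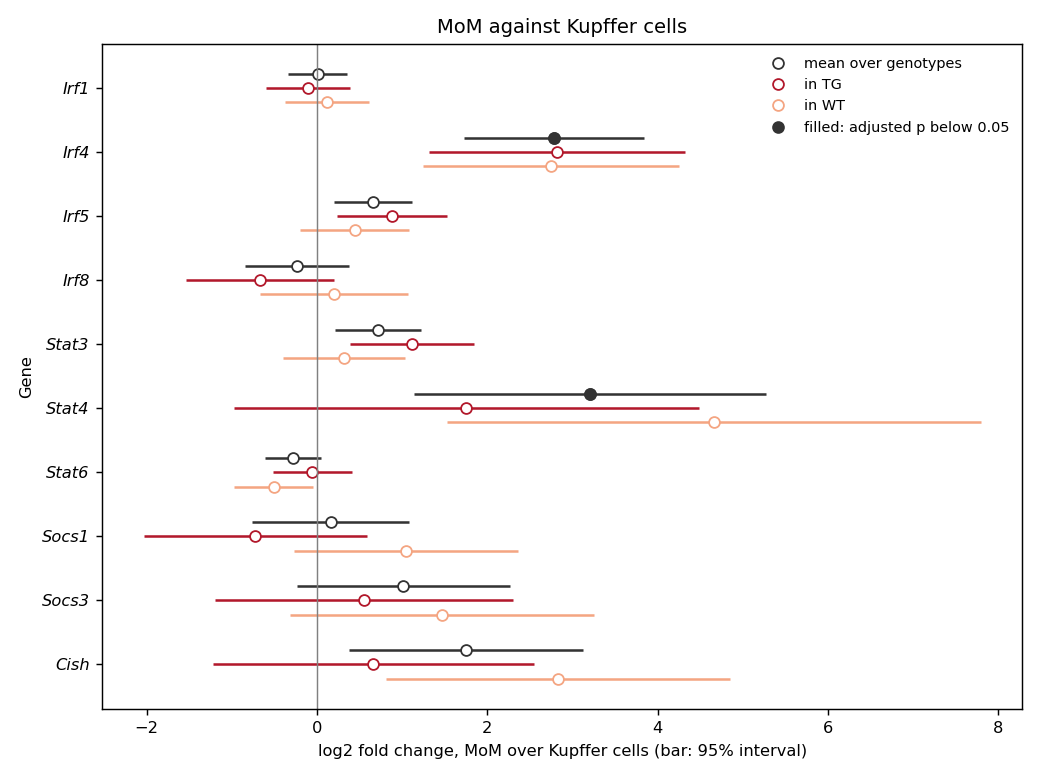
Log2 fold change of MoM over Kupffer cells (horizontal axis) for each regulator (vertical axis), averaged over genotypes, within TG and within WT, from edgeR's quasi-likelihood fit of 8 libraries. Bars are 95% intervals, and filled points have an adjusted p below 0.05, which holds for the averaged values of Irf4 (2.78) and Stat4 (3.21) only.

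Stat4, which encodes the transducer of interleukin 12 signals in T cells, NK cells and some myeloid cells, was the least abundant of the 3 STAT members (chromosome 1, 51987148 to 52107189, plus strand). It stood at 24.3 and 31.3 CPM in MoM TG, 12.1 and 44.7 CPM in MoM WT, 1.10 and 15.4 CPM in Kupffer TG, and 0.898 and 1.34 CPM in Kupffer WT. Of the 4 Kupffer libraries, 3 were near 1 CPM, and Kupffer TG replicate 2 overlapped the MoM range. The log2 fold change of MoM over Kupffer cells was 3.21 ± 0.85 (95% interval 1.15 to 5.27, adjusted p = 0.0472). Within WT it was 4.66 ± 1.30 (adjusted p = 0.111) and within TG 1.75 ± 1.13, neither of which passed. Without the 2 libraries in doubt, the values were 5.28 within WT and 4.55 within TG, with 1 library left in MoM WT and in Kupffer TG. The averaged call was lost without either Kupffer WT library, either MoM TG library or MoM WT replicate 2 (adjusted p = 0.112 to 0.164).

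T cells and NK cells also express Stat4. The sums of their markers overlapped between MoM and Kupffer cells, as Stat4 itself did, but most single NK cell markers followed Stat4 more closely than the sums. The T cell marker sum, over the 5 of 6 markers in the files, was 49.3 and 114 CPM in MoM TG, 36.3 and 78.4 CPM in MoM WT, 40.3 and 165 CPM in Kupffer TG, and 24.3 and 27.0 CPM in Kupffer WT. Kupffer TG replicate 2, the Kupffer library with 15.4 CPM of Stat4, had the highest T cell sum of the 8 libraries. The NK cell marker sum (5 genes) was 255 and 149 CPM in MoM TG, 63.8 and 140 CPM in MoM WT, 77.5 and 96.2 CPM in Kupffer TG, and 75.1 and 60.4 CPM in Kupffer WT. Klrk1 held most of the NK cell sum in each Kupffer library (56.5 to 73.4 CPM). Among the Kupffer libraries, Ncr1, Klrb1c, Eomes and Prf1 were highest in TG replicate 2, as Stat4 was. Klrb1c stood at 25.6 CPM there, against 0.215 to 1.13 CPM in the remaining Kupffer libraries. Like Stat4, each of them was higher in every MoM library than in those remaining libraries. Cd3d, Cd3g and Cd8a shared this order, whereas Klrk1, Cd3e and Cd4 did not. The T cell marker Cd3e stood at 1.89 and 23.7 CPM in Kupffer TG, against 0.970 and 3.28 CPM in Kupffer WT. The part of these cells in the Stat4 result was not tested.

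Stat3, the transducer of interleukin 6 and interleukin 10 signals (chromosome 11, 100885098 to 100939540, minus strand), was highest in MoM TG. It stood at 611 and 405 CPM in MoM TG, 227 and 312 CPM in MoM WT, 258 and 212 CPM in Kupffer TG, and 235 and 196 CPM in Kupffer WT. Both MoM TG libraries lay above the other 6, which overlapped each other. Within TG, the log2 fold change of MoM over Kupffer cells was 1.11 ± 0.30 (adjusted p = 0.091, edgeR's quasi-likelihood test). Within MoM, that of TG over WT was 0.91 ± 0.30 (adjusted p = 0.755). Without the 2 libraries in doubt, these values were 0.88 within TG and 0.69 within MoM. The exons of Stat3 overlap those of Stat5a on the other strand. Stat5a was itself higher in MoM (log2 fold change 1.92 ± 0.22, adjusted p = 0.00826), at 85.2 and 78.3 CPM in MoM TG and 47.0 and 80.3 CPM in MoM WT, against 23.5 and 19.1 CPM in Kupffer TG and 19.3 and 14.9 CPM in Kupffer WT.

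Stat6, the transducer of interleukin 4 and interleukin 13 signals (chromosome 10, 127642986 to 127660957, plus strand), varied least of the members. It stood at 248 and 261 CPM in MoM TG, 253 and 218 CPM in MoM WT, 267 and 261 CPM in Kupffer TG, and 326 and 343 CPM in Kupffer WT. The Kupffer WT libraries lay above the other 6. Within WT, the log2 fold change of MoM over Kupffer cells was -0.51 ± 0.19 (adjusted p = 0.17), and within Kupffer cells that of TG over WT was -0.34 ± 0.19 (adjusted p = 0.738). The exons of Stat6 overlap those of Nab2 on the other strand.

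The 3 feedback inhibitors had their lowest mean levels in Kupffer WT. Socs1, which blocks the Janus kinases of interferon receptors (chromosome 16, 10782240 to 10785536, minus strand), stood at 27.5 and 28.2 CPM in MoM TG, 23.8 and 23.8 CPM in MoM WT, 25.7 and 66.1 CPM in Kupffer TG, and 16.3 and 6.79 CPM in Kupffer WT. Kupffer TG replicate 2 was the highest library and Kupffer WT the lowest group, with no overlap between Kupffer WT and any other group. Socs3, which blocks the receptor subunit shared by the interleukin 6 family (chromosome 11, 117966079 to 117970047, minus strand), stood at 349 and 629 CPM in MoM TG, 430 and 412 CPM in MoM WT, 125 and 540 CPM in Kupffer TG, and 211 and 92.2 CPM in Kupffer WT. Kupffer TG replicate 2 lay within the MoM range and Kupffer TG replicate 1 within that of Kupffer WT. Cish, a target and inhibitor of STAT5 signals (chromosome 9, 107296026 to 107302784, plus strand), stood at 33.8 and 39.0 CPM in MoM TG, 22.5 and 41.1 CPM in MoM WT, 9.22 and 36.7 CPM in Kupffer TG, and 6.93 and 2.02 CPM in Kupffer WT. As with Socs3, Kupffer TG replicate 2 lay within the MoM range.

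For MoM over Kupffer cells within WT, the log2 fold change was 2.83 ± 0.84 for Cish (adjusted p = 0.122), 1.47 ± 0.74 for Socs3 and 1.05 ± 0.55 for Socs1, with no overlap for any of the 3. Within TG it was 0.66 for Cish, 0.56 for Socs3 and -0.72 for Socs1, with overlap for each. Averaged over genotypes, Cish had 1.75 ± 0.57 (adjusted p = 0.0782) and Socs3 1.01 ± 0.52 (adjusted p = 0.211), and edgeR called neither, while DESeq2 called Cish (1.71, adjusted p = 0.0121). Without MoM WT replicate 1 and Kupffer TG replicate 2, the averages were 2.51 for Cish and 1.62 for Socs3. In that fit MoM WT and Kupffer TG each have 1 library. The number of Cish counts per Socs1 count was 1.23 and 1.38 in MoM TG and 0.944 and 1.73 in MoM WT, against 0.358 and 0.556 in Kupffer TG and 0.426 and 0.297 in Kupffer WT. That ratio did not overlap between the subsets, although Kupffer TG replicate 2 was high for both genes.

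In Kupffer TG replicate 2, where all 3 inhibitors were higher than in the other Kupffer libraries, the T cell marker sum was 165 CPM, and it was between 24.3 and 40.3 CPM in the remaining 3. The endothelial marker sum was 5956 CPM there and between 1612 and 2232 CPM in those 3, with Kdr at 1107 CPM. The part of these cells in the levels of Socs1, Socs3 and Cish was not tested.

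**Figure D3:**
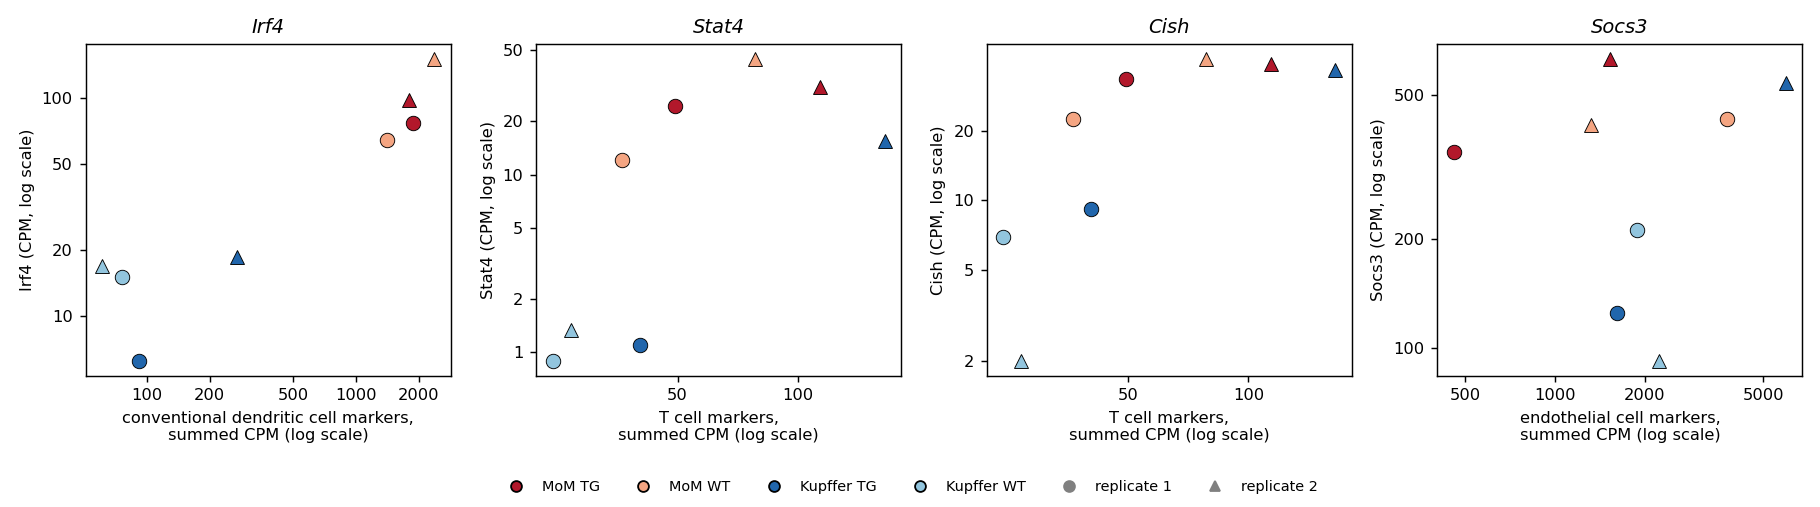
Level of Irf4, Stat4, Cish and Socs3 (vertical axes, CPM, log scale) against the summed CPM of markers of another cell type in the same library (horizontal axes, log scale), for 8 libraries. Irf4 is set beside conventional dendritic cell markers, Stat4 and Cish beside T cell markers and Socs3 beside endothelial markers. The MoM libraries have 1409 to 2373 CPM of dendritic cell markers and Kupffer TG replicate 2 has 165 CPM of T cell markers and 5956 CPM of endothelial markers.

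For TG against WT, the members with the clearest separation were Irf1 and Socs1, but no member and no gene of the whole table was called in either subset or on average, so that the share called was 0% in each of these comparisons. At an unadjusted p below 0.05, edgeR found 906 genes (5.94%) in Kupffer cells, 987 (6.47%) in MoM and 977 (6.40%) on average, and DESeq2 called 251, 141 and 248 genes at its adjusted threshold. Irf1 stood at 502 and 545 CPM in MoM TG and 342 and 380 CPM in MoM WT. In Kupffer cells it stood at 573 and 548 CPM in TG and 346 and 320 CPM in WT. All 4 TG libraries lay above all 4 WT libraries, as for Socs1 and for 0.813% of all genes. The log2 fold change of TG over WT was 0.64 ± 0.15 on average (1.56-fold, 95% interval 0.29 to 0.99, adjusted p = 0.531), 0.54 ± 0.21 in MoM (adjusted p = 0.755) and 0.75 ± 0.21 in Kupffer cells (adjusted p = 0.73). DESeq2 called Irf1 on average (0.65, adjusted p = 0.00431) and in Kupffer cells (0.76, adjusted p = 0.0347). Without MoM WT replicate 1 and Kupffer TG replicate 2, the values were 0.63 on average, 0.44 in MoM and 0.83 in Kupffer cells, none of them called.

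Socs1 had a log2 fold change of TG over WT of 1.11 ± 0.39 on average (2.16-fold, adjusted p = 0.718). It was 0.23 ± 0.54 in MoM and 1.99 ± 0.56 in Kupffer cells (adjusted p = 0.73), and in Kupffer cells it was 1.19 without the 2 libraries in doubt. The difference between these effects, MoM minus Kupffer cells, was -1.77 ± 0.77 (adjusted p = 0.626). Cish had 0.19 in MoM and 2.36 ± 0.82 in Kupffer cells (adjusted p = 0.73), and the Kupffer value was 1.08 without those libraries. Stat4 had -0.03 in MoM and 2.87 ± 1.21 in Kupffer cells, and the Kupffer value was 0.02 without those libraries. No gene was called for the difference between subsets by edgeR (0%), with 980 genes (6.42%) but no member at an unadjusted p below 0.05, and DESeq2 called 47 genes.

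Of the 10 members, 7 had a positive log2 fold change of TG over WT in MoM and 7 in Kupffer cells, with medians of 0.20 and 0.48. The averaged log2 fold change was positive for 7 members, with a median of 0.58, and for 53.6% of all genes. Over all genes, 46.7% were positive in MoM and 53.1% in Kupffer cells, with medians of -0.04 and 0.03. Levels were higher in each TG library than in each WT library for Irf1, Irf5, Stat3 and Socs1 in MoM (19.2% of all genes) and for Irf1, Socs1 and Cish in Kupffer cells (16.7%). In the opposite direction, with each TG library below each WT library, stood 0 members in MoM (20.0% of all genes) and 1 in Kupffer cells (Stat6; 17.7%).

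**Figure D4:**
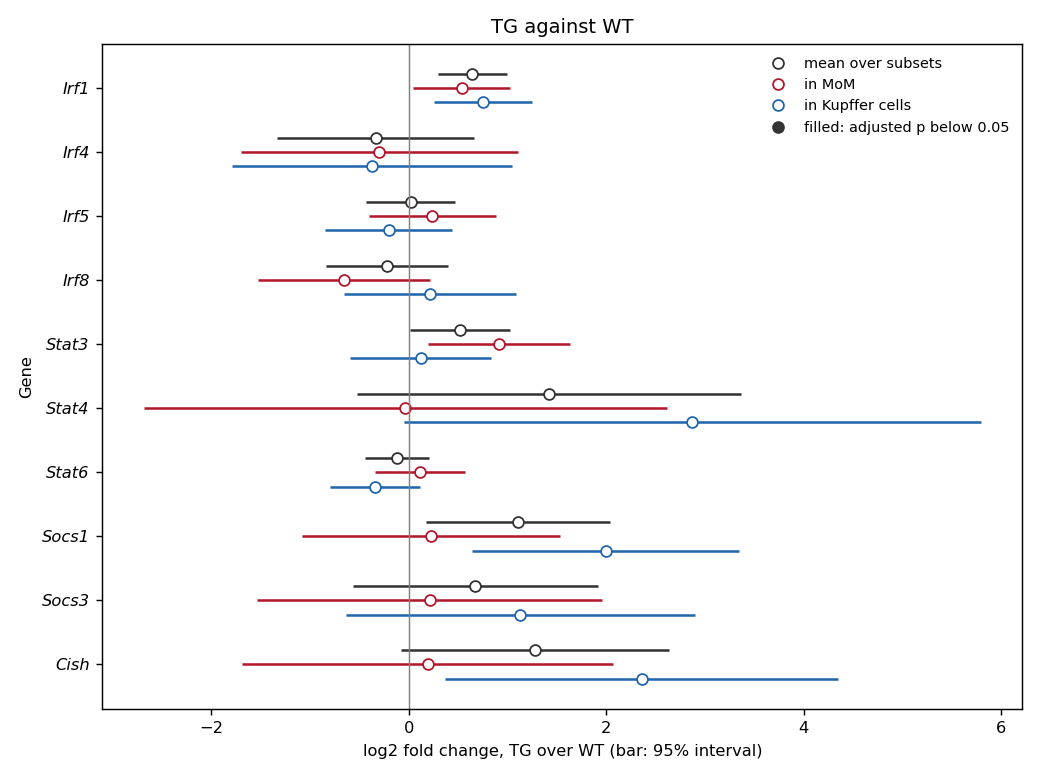
Log2 fold change of TG over WT (horizontal axis) for each regulator (vertical axis), averaged over subsets, in MoM and in Kupffer cells, from edgeR's quasi-likelihood fit of 8 libraries. Bars are 95% intervals, and all points are open because no adjusted p was below 0.05; the averaged interval of Irf1 runs from 0.29 to 0.99.

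Set per kilobase of merged exon, so that genes can be compared with each other, Socs3 had the highest mean in both MoM groups, at 169 CPM per kb in TG and 146 in WT. In MoM TG that rank rested on replicate 2 (218 CPM per kb), because Socs3 stood at 121 in replicate 1, below Irf5 at 143 and Irf1 at 126. Irf1 had the highest mean in Kupffer TG, at 141 CPM per kb, although Socs3 stood above it in replicate 2 (187 against 138 CPM per kb). In Kupffer WT the highest means were those of Irf5 (92.2) and Irf1 (83.8 CPM per kb), whose order differed between the 2 libraries. Stat4 was at 7.18 CPM per kb in MoM TG, 7.34 in MoM WT, 2.13 in Kupffer TG and 0.289 in Kupffer WT. Cish had the lowest mean in both MoM groups, at 5.67 CPM per kb in TG and 4.96 in WT, and Stat4 in both Kupffer groups. In 1 library each, another member was lower, namely Stat4 in MoM WT replicate 1, Irf4 in Kupffer TG replicate 2 and Cish in Kupffer WT replicate 2. Merged exon lengths ran from 2891 bases for Socs3 to 9527 bases for Stat3.

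The members did not share 1 pattern over the 8 libraries. Likeness was measured as the root mean square difference of centred log2(CPM + 0.5) among the 8920 genes whose mean was 10 CPM or more. The closest pair of members was Irf5 and Stat3, at 0.348. The genes closest to Irf4 were Icosl (0.275) and Slc2a3 (0.316), against 1.48 for the deviation of Irf4 from its own mean. Those closest to Stat4 were Csf1 (0.302) and Gata2 (0.340), against 1.95. Csf1 stood at 61.0 and 111 CPM in MoM TG, 56.4 and 200 CPM in MoM WT, 5.25 and 80.2 CPM in Kupffer TG, and 5.39 and 7.61 CPM in Kupffer WT, and so shared the high Kupffer TG replicate 2. Irf1 was closest to Ublcp1 (0.0942) and Emc2 (0.122), Irf5 to Srrm2 (0.128) and Fbrs (0.129), and Irf8 to Rundc1 (0.153) and Lcmt2 (0.160). Stat3 was closest to Nab1 (0.0771) and Cdkn1b (0.131), and Stat6 to Zfp646 (0.0623) and Prrc1 (0.0633). Socs1 was closest to Cdc42ep2 (0.383) and Stard4 (0.411), Socs3 to Clic4 (0.318) and Phlda1 (0.321), and Cish to Ptprcap (0.339) and Serpinb6b (0.401). Ptprcap, which encodes a partner of the lymphocyte phosphatase CD45, had 26.6 CPM in Kupffer TG replicate 2 and from 1.12 to 3.48 CPM in the remaining libraries of Kupffer cells.

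Of 13 other IRF, STAT and SOCS genes, 1 was called higher and 2 were called lower in MoM than in Kupffer cells, averaged over genotypes. The higher one was Stat5a. Irf7, the main factor of interferon alpha induction, was lower in MoM (log2 fold change -1.96 ± 0.39, adjusted p = 0.0234), at 154 and 190 CPM in MoM TG and 377 and 113 CPM in MoM WT, against 772 and 611 CPM in Kupffer TG and 936 and 902 CPM in Kupffer WT. Socs5, a further member of the SOCS family, was lower in MoM (-1.16 ± 0.22, adjusted p = 0.0217). The median of the 13 genes was -0.0049, against 0.09 over all genes. Among 12 kinases and phosphatases of the pathway, Jak2 alone was called (2.34 ± 0.23, adjusted p = 0.00526), at 543 and 587 CPM in MoM TG and 324 and 565 CPM in MoM WT, against 95.9 and 119 CPM in Kupffer TG and 94.9 and 86.9 CPM in Kupffer WT. It was also called within TG (2.39) and within WT (2.29). Among 9 partners of IRF proteins, Spib, which binds DNA together with IRF4 and IRF8, was higher in MoM (3.13 ± 0.56, adjusted p = 0.0191).

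Of 21 receptor genes, Il21r (3.49 ± 0.41, adjusted p = 0.00834) and Il12rb2 (3.51 ± 0.71, adjusted p = 0.0252) were higher in MoM. Ifngr2 (-0.64, adjusted p = 0.0456), Ifnar2 (-0.85, adjusted p = 0.0222) and Il10rb (-1.34, adjusted p = 0.0166), subunits of the receptors for interferon gamma, type I interferons and interleukin 10, were lower, and the median of the list was 0.22. Of 11 ligand genes tested, Osm (5.90 ± 0.80, adjusted p = 0.0114), Lif (4.71 ± 1.13, adjusted p = 0.0362) and Il12a were called higher. Il12a had no count in any Kupffer library and 0.715 to 2.88 CPM in MoM.

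Of 9 known STAT6 target genes, 6 passed the test with higher levels and 2 with lower levels in MoM. Mgl2 (8.02 ± 0.25, adjusted p = 0.000421), Ccl17 (5.40 ± 0.40, adjusted p = 0.00351), Ccl22, Retnla, Pdcd1lg2 and Chil3 were higher, while the mannose receptor gene Mrc1 (-2.32 ± 0.49, adjusted p = 0.0269) and Ccl24 (-3.04 ± 0.58, adjusted p = 0.0218) were lower. Most of the higher genes are also known from dendritic cells and monocytes, and the dendritic cell marker sums given with Irf4 moved with them. Pdcd1lg2 stood at 13.1 and 12.3 CPM in Kupffer TG, above both MoM WT libraries (7.93 and 12.2 CPM). Chil3 stood at 13.2 and 1003 CPM in MoM TG, and its high library was the one with 3443 CPM of neutrophil markers. The median of the list was 4.85. Of 7 known STAT3 target genes, Bcl6 (2.04 ± 0.19, adjusted p = 0.00479), Saa3 (5.20 ± 1.26, adjusted p = 0.0364) and Sbno2 (0.65 ± 0.16, adjusted p = 0.0384) were higher, with a median of 0.50. Of the 24 genes of these lists called on average, 22 lost the call when some 1 library was left out, all 22 of them without Kupffer WT replicate 2, and Mgl2 and Ccl17 kept it under every alternative tried. Sbno2 also lost it with median-of-ratios size factors and with unfiltered counts.

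Of the 81 genes of these lists tested, edgeR called none for TG against WT. DESeq2 called 7 in Kupffer cells (Chil3, Ifng, Il12rb1, Il21r, Osm, Osmr and Pdcd1lg2), 1 in MoM (Csf3r) and 9 on average, all of them higher in TG. Ifng, the gene of interferon gamma made by T cells and NK cells, stood at 39.7 and 29.6 CPM in MoM TG and 3.40 and 15.6 CPM in MoM WT, and at 2.42 and 31.8 CPM in Kupffer TG and 0.718 and 0.448 CPM in Kupffer WT. The T cell marker sums given with Stat4 were higher in both TG libraries than in both WT libraries in Kupffer cells and overlapped in MoM. In Kupffer TG replicate 1, Cd4 alone held 30.2 of the 40.3 CPM. Cd3e, Cd3g and Cd8a overlapped between TG and WT in Kupffer cells, whereas Cd3d and Cd4 did not. The NK cell marker sums were higher in TG in both subsets. In Kupffer cells Klrk1, Ncr1, Eomes and Prf1 each overlapped between TG and WT, and only Klrb1c did not. In MoM Eomes and Prf1 overlapped, whereas Klrk1, Ncr1 and Klrb1c did not. The part of T cells and NK cells in the levels of Irf1 and Ifng was not tested. The authors' deposited table of 179 genes for TG against WT lists none of the 10 members and 7 genes of these lists. In the authors' deposited table, which does not state its cell type, the log2 fold change was 4.89 for Ifng (adjusted p = 0.00412) and 3.56 for Il12rb1, which encodes a receptor subunit for interleukin 12, and the other 5 were Il21r, Osm, Pdcd1lg2, Ccl24 and Chil3, each with a positive value. For Ccl24 that value was 1.32. Its mean here was 406 CPM in Kupffer TG against 165 CPM in Kupffer WT. In MoM its mean was lower in TG (26.0 against 38.2 CPM), with overlap, so the positive value has the direction of Kupffer cells.

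**Figure D5:**
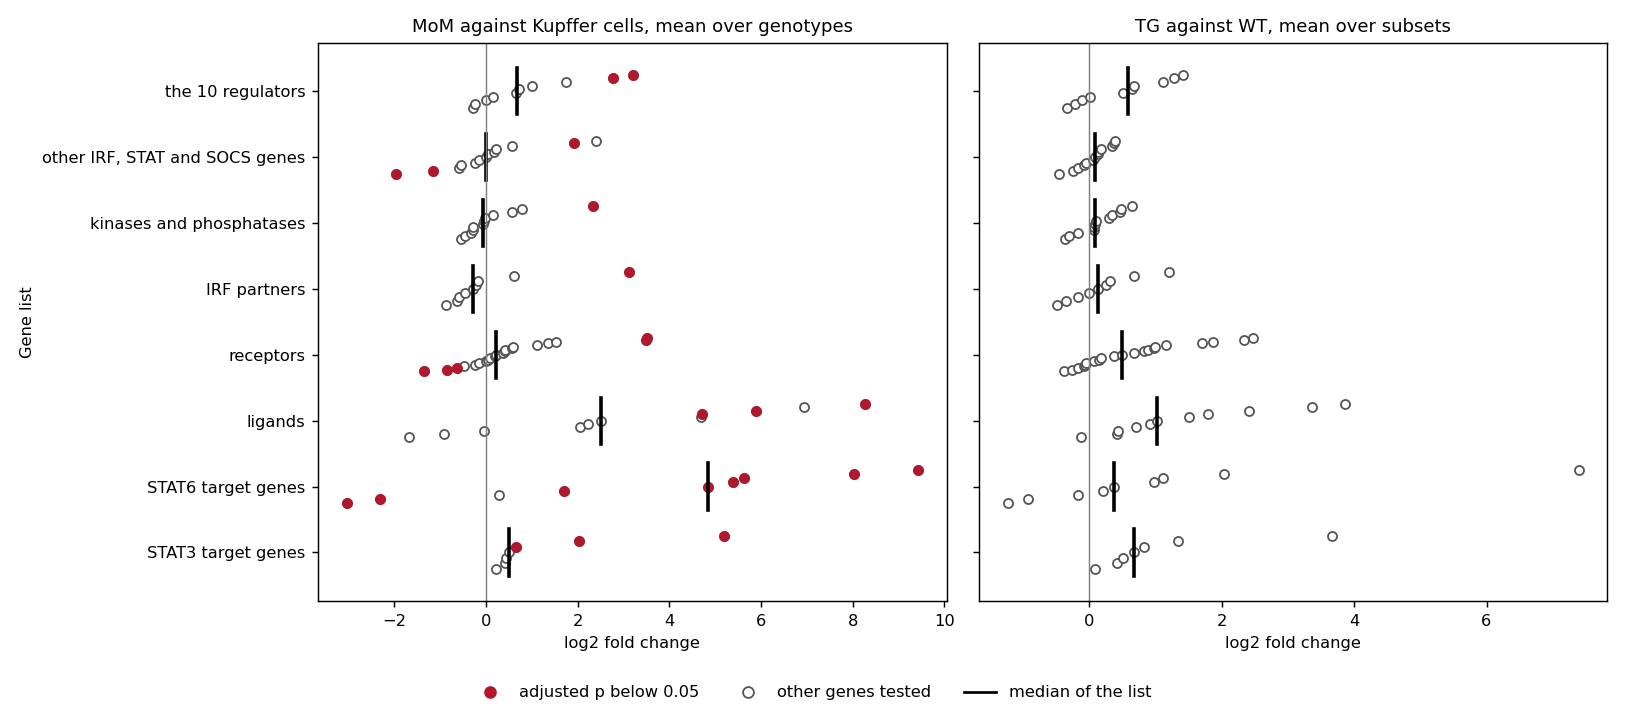
Log2 fold change of each gene tested (horizontal axis) in the 10 regulators and 7 lists of pathway genes (vertical axis), for MoM over Kupffer cells averaged over genotypes (left) and TG over WT averaged over subsets (right). Filled points have an adjusted p below 0.05 and bars are list medians; on the right no gene is filled.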

How the data were processed

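RNA of liver macrophages was measured in 8 libraries. The sample titles gave the groups and the replicate numbers. Alignment was to mm10 (the assembly GRCm38) with STAR 2.5.2b, per the submitters' processing notes. How reads were counted, with which annotation and on which strand, is not given in the sources used here. Raw counts were deposited by the authors as 1 whole number for each gene symbol. Between 65.0% and 68.0% of the nonzero counts of at most 19 were even, so counts may overstate the number of independent fragments. A further table by the authors holds, per the file headers, a mean of normalized counts (a signal), a log2 fold change with its standard error, a test statistic (a score) and p-values; it lists none of the members and was not used in any fit.

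The members and the gene lists were chosen with earlier results of these data known. Counts of all 8 libraries were fitted with a mean for each of 4 groups in edgeR 4.0.16, under R 4.3.3. The fit used filterByExpr, TMM, the quasi-likelihood F-test and Benjamini-Hochberg adjustment over 15254 genes, and genes under an adjusted p of 0.05 are called. The fit had a common biological coefficient of variation of 0.507, 4 residual degrees of freedom and 2.37 prior ones. The SE is the size of the log2 fold change over the square root of F. The fit was also run on simulated counts. These held no outlying libraries, so that run does not bear on the effect of single libraries here. Of 24786 symbols, 24208 (97.7%) matched GENCODE M21, which gave positions and merged exon lengths, and promoter sequences of all 10 members came from RefSeq (GRCm38.p6). Named were all members, the pathway genes called in any comparison, defining markers, and the 2 genes most like each member. 1 further item of the pathway is not reported here. Alternatives were DESeq2 1.42.0, the replicate number as a block, unfiltered counts, median-of-ratios size factors, only the 4 libraries compared, each library left out, and the 2 libraries in doubt left out together. Figures were drawn with matplotlib 3.10.9.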

Additional observations from a re-analysis of the deposited data

Results flagged for a closer look

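Bcl6, a repressor gene among the known STAT3 targets, moved in opposite directions in every library of the 2 subsets. It stood at 155 and 119 CPM in MoM TG, against 76.9 and 108 CPM in MoM WT, and at 23.6 and 24.0 CPM in Kupffer TG, against 35.6 and 27.2 CPM in Kupffer WT. The log2 fold change of TG over WT was 0.57 ± 0.26 in MoM and -0.40 ± 0.26 in Kupffer cells, with neither called. The difference between these effects was 0.97 ± 0.36 (adjusted p = 0.626, edgeR's quasi-likelihood test), and missed the adjusted threshold.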

How the results depend on the processing

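Counts of calls depended on the tool and on single libraries. DESeq2 called 1 member and 251 genes for TG against WT in Kupffer cells, 141 genes in MoM, and 1 member and 248 genes on average. For MoM against Kupffer cells it called 4 members and 2867 genes within WT, 2 members and 2563 genes within TG, and 5 members and 4492 genes on average, and 47 genes for the difference between subsets. With only the 4 libraries compared, 2 members and 1585 genes were called within WT and 0 genes within TG. Without Kupffer TG replicate 2 and MoM WT replicate 1 together, 3 members and 2677 genes were called within WT, 2 members and 2130 genes within TG, and 4 members and 4972 genes on average. Leaving out each library in turn gave 0 to 257 genes for TG against WT in Kupffer cells, 0 to 3 members and 0 to 1434 genes for MoM against Kupffer cells within WT, 0 to 1 members and 0 to 1026 genes within TG, 0 to 4 members and 84 to 4458 genes on average, and 0 to 83 genes for the difference between subsets. The cause was not tested.

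Of same-numbered libraries, only those of the same genotype could share a mouse. Their deviations had a correlation of 0.664 between Kupffer TG and MoM TG and of -0.237 between Kupffer WT and MoM WT. These were also the highest and the lowest value over all pairs of groups. The numbers were not taken as pairs, and whether the TG libraries were paired was not tested. The labels do not say whether same-numbered libraries share a mouse or a day. The replicate block called 1 member within TG (Irf4, 2.98, adjusted p = 0.0461), 0 within WT and 2 on average, with 301, 234 and 3171 genes, and 0 genes in the other comparisons, and turned Stat4 for TG against WT in MoM to 0.36. Among pathway genes it ended the calls of Ifngr2 and Saa3.

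Signs turned only for values that were not called. For Irf1, MoM against Kupffer cells on average, the log2 value of 0.01 turned to -0.032 with median-of-ratios size factors, -0.055 with no filter, -0.033 with DESeq2 and -0.045 without the 2 libraries in doubt. Without those 2 libraries, TG against WT turned to 0.12 for Irf5 and -0.25 for Socs3 in Kupffer cells, to -0.20 for Cish in MoM, and to 0.11 for Irf8, -0.35 for Stat4 and -0.016 for Socs3 on average. MoM against Kupffer cells turned to -0.28 for Irf8 within WT and 0.0080 for Socs1 within TG, and the difference between subsets to -0.025 for Irf5 and 0.46 for Socs3. Leaving out each library in turn, TG against WT in Kupffer cells ran from -1.32 to 0.19 for Irf4, -0.56 to 0.12 for Irf5, -0.027 to 0.45 for Irf8, -0.058 to 0.30 for Stat3 and -0.25 to 1.86 for Socs3. In MoM it ran from -0.78 to 0.45 for Irf4, -0.68 to 1.20 for Stat4, -0.27 to 0.59 for Socs3 and -0.17 to 0.70 for Cish. On average it ran from -0.82 to 0.040 for Irf4, -0.17 to 0.17 for Irf5, -0.40 to 0.0035 for Irf8, -0.017 to 2.03 for Stat4 and -0.025 to 1.03 for Socs3. MoM against Kupffer cells ran from -0.014 to 0.18 for Irf1 and -0.25 to 0.54 for Irf8 within WT, from -1.28 to 0.0084 for Socs1, -0.18 to 1.86 for Socs3 and -0.046 to 1.87 for Cish within TG, and from -0.093 to 0.040 for Irf1 and -0.15 to 0.50 for Socs1 on average. The difference between subsets ran from -0.50 to 1.00 for Irf4 and -1.66 to 0.44 for Socs3. With 2 libraries a group and a coefficient of variation of 0.507, small changes of single genes are beyond the reach of this design.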
